A study of Homo sapiens with 6 samples.

Results

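Glycolysis and hypoxia-induced genes were examined as 36 genes chosen by name, all of them listed among the 14168 genes of the deposited table. They comprised 26 genes of glucose entry, glycolysis, pyruvate and lactate handling, 9 targets of the hypoxia-inducible factors (HIFs) with other functions, and HIF1A, which encodes the oxygen-regulated HIF subunit. Polyadenylated RNA had been sequenced from the human foreskin fibroblast line BJ, an established line labelled wild type in all 6 libraries. A control siRNA was used for 3 libraries and for the other 3 an siRNA against agrin, a large basement membrane proteoglycan that cells secrete. All libraries came from cells grown in RPMI medium with fetal bovine serum, and no label gives an oxygen level or names a compound, although the isolation protocol mentions compound treatment. The sources used here give neither the siRNA sequences nor their dose and time. All cells were of a single line, and whether the 3 libraries of each group had separate cultures is not stated. The p-values therefore measure the spread between these libraries, which may be technical.

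In glycolysis, transporters carry glucose into the cell, hexokinases trap it as a phosphate, and a chain of enzymes splits it to pyruvate. Fibroblasts in culture send much of this pyruvate to lactate, which monocarboxylate transporters carry out of the cell. When oxygen is low, the HIF alpha subunits escape hydroxylation by the EGLN prolyl hydroxylases, pair with ARNT and switch on many glycolytic genes together with genes of mitophagy, angiogenesis and HIF feedback. Most glycolytic steps have several isozymes from different genes, and only some of them are strongly induced by HIF.

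Reads on listed genes numbered 42736368 to 48246613 per library. The deposited value, called scaled CPM here, is a read count divided by a scaled library size, and the values of a group are given in the order of their replicate numbers. AGRN, the targeted gene, stood at 744, 804 and 790 with control siRNA and at 290, 297 and 265 with agrin siRNA (log2 fold change -1.46, limma adjusted p = 3.19e-06). Of the 12 fibroblast markers all were tested, with 1 higher and 5 lower, or 50% called against 28.7% of all genes tested. Of 6 immune cell markers 3 were tested and all 3 rose, while 15.2% of all genes tested were higher. Their summed level was 126 to 143 in the control and 263 to 271 in the agrin siRNA libraries. Nearly all of it was CD68, a lysosomal protein. The other 3, among them the pan-leukocyte marker PTPRC, were not analysed here, and the part of this shift in the results below was not tested. Of 5 endothelial markers 2 were listed, CDH5 at 0 in all libraries and TEK at 7.52 ± 0.448 and 8.45 ± 0.748 (SD, n = 3). Of 6 epithelial markers KRT8, which fell, and KRT18, which was not called, were tested, and PMEL, the listed melanocyte marker, between 1.18 and 1.68.

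The comparison asked whether the transcripts of the glycolytic chain and those of other HIF targets differed between the agrin siRNA and control libraries. The enzymes of the chain showed small differences, while its ends and some isozymes changed. Transcripts of both glucose transporters, SLC2A1 and SLC2A3, fell by 21.7% and 18.9%, and the lactate exporter SLC16A3 rose by 28.7%. PFKP, the platelet-type phosphofructokinase, rose by 25.7%, and ALDOC, the brain-type aldolase, fell by 22.9%. Among HIF targets outside glycolysis, the mitophagy receptor BNIP3L, the prolyl hydroxylase EGLN1 and the MYC antagonist MXI1 fell by 17.6% to 19.6%, and no member rose. In bulk RNA, fewer cells that express a gene and less RNA per cell cannot be told apart.

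Of the 35 members that passed the filter on low values, 5 were called higher and 8 lower by limma with the adjusted p under 0.05, or 37.1% against 28.7% of all 13206 genes tested. Over all genes tested, 15.2% were higher and 13.5% lower. Among the 26 genes of glycolysis, pyruvate and lactate, 5 were higher, 5 lower and 16 not called, with a median log2 fold change of 0.02. Of the 8 tested HIF targets outside glycolysis, 0 were higher and 3 lower, with a median of -0.14, and 0 were higher at an unadjusted p under 0.05, with edgeR or with DESeq2. The median of all genes tested was 0.00. Control and agrin siRNA libraries did not overlap for 18 of the 35 members, against 45.2% of all genes tested. All of the called changes were small, with log2 fold changes between -0.37 and 0.36. The remaining member, the prolyl hydroxylase EGLN3, had 1 to 6 reads per library and was not tested.

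**Figure D1:**
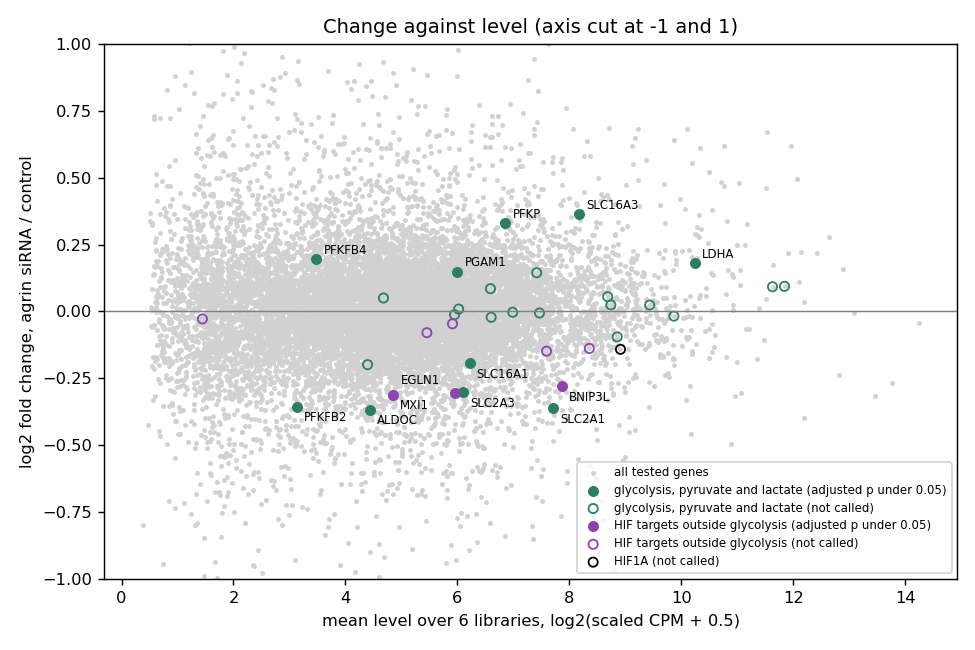
Log2 fold change of agrin siRNA over control libraries (vertical axis, drawn from -1 to 1) against the mean level over the 6 libraries (horizontal axis, log2 of scaled CPM plus 0.5). Grey points are all tested genes, filled points members called at an adjusted p under 0.05 and open points members not called; the called members lie between -0.37 and 0.36, within the cloud of all genes.

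Levels can be set against each other between genes only per length, here as scaled CPM per kilobase of annotated exon. The length joins the exons of all annotated transcripts of a gene. Which transcripts the cells made was not tested, so the order between genes is approximate. On that scale GAPDH, the dehydrogenase at the centre of the chain, was the most abundant member at 1194 ± 44.8 in the control group (SD, n = 3), followed by PKM, pyruvate kinase, at 358 ± 9.28. LDHA stood at 183, ENO1 at 178, ALDOA at 175, LDHB at 160 and TPI1 at 157. The control libraries of LDHA, ENO1 and ALDOA overlapped, as did those of LDHB and TPI1, so the order within each of these groups is not resolved. The hypoxia-induced hormone precursor ADM (126) and HIF1A itself (98.1) came next, above PGK1 (73.2). The transporters SLC2A1 (49.5) and SLC16A3 (28.0) stood well above SLC2A3 (12.2). At the low end were PFKFB4 (1.62), PDK1 (1.47), PFKFB2 (0.913), ANKRD37 (0.868) and EGLN3 (0.00894).

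**Figure D2:**
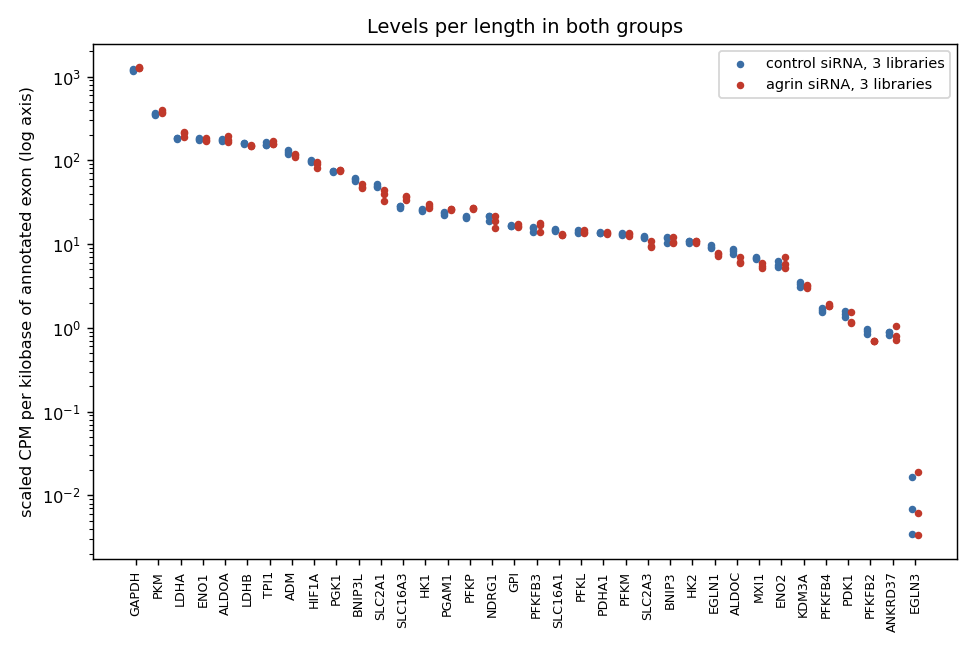
Scaled CPM per kilobase of annotated exon on a log axis for the 36 genes, ordered by their mean in the control group. Each point is a library, control in blue and agrin siRNA in red; the order runs from GAPDH at 1194 to EGLN3 at 0.00894 in the control group, and the groups lie close together at nearly every gene.

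HIFs bind a short core, ACGTG or GCGTG, in many of these genes. Promoter sequence from RefSeq (GRCh38.p14) was found for 31 of the 36 genes, with 61 promoters in all because several genes have more than 1 start. The 250 bases before each start were searched on both strands, so ACGTG was also counted as CACGT, and the 6-base CACGTG, an E-box bound by MYC and MondoA family factors, holds the core on both strands. ACGTG was present in 21 of the 61 promoters (34.4%), against 22.4% of the 14236 promoters of tested genes and 18.5% of all 35116 promoters. Either core was present in 59.0% of the members' promoters, against 55.3% for tested genes. ACGTG was in 3 of 13 promoters of higher members, 3 of 6 of lower members and 15 of 41 of members not called. No promoter was found for the lower members SLC2A3, PFKFB2, SLC16A1 and BNIP3L or for NDRG1, which was not called. The lower members are thus only partly covered, and 3 of their 6 promoters are of MXI1. Promoters of 1 gene can share sequence, so these shares are a description.

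The stretches below show the ACGTG core nearest the start of a promoter, with 20 bases on each side where the upstream sequence reaches that far. They are from 3 higher, 3 lower and 2 not called members, chosen after their values were seen. LDHA, SLC16A3, PFKP and MXI1 have 2, 5, 4 and 3 promoters, and those not shown lack ACGTG in the bases searched. Each stretch was taken from a promoter that holds the core, so its presence before higher, lower and not called genes was fixed by this choice. All are written 5′ to 3′ on the strand of the gene, and capitals mark ACGTG or its complement CACGT. The LDHA stretch lies at chr11:18394470-18394514 on the plus strand, SLC16A3 at chr17:82228967-82229011 (plus), PFKP at chr10:3069030-3069074 (plus), ALDOC at chr17:28576899-28576943 (minus), EGLN1 at chr1:231422288-231422320 (minus), MXI1 at chr10:110210098-110210142 (plus), PGK1 at chrX:78104045-78104089 (plus) and GAPDH at chr12:6535164-6535208 (plus).
LDHA (higher): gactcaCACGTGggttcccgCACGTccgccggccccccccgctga
SLC16A3 (higher): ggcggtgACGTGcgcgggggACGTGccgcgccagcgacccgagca
PFKP (higher): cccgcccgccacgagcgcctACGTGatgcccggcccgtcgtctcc
ALDOC (lower): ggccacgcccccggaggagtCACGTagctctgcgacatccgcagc
EGLN1 (lower): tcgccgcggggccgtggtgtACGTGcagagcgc
MXI1 (lower): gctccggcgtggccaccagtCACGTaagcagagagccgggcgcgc
PGK1 (not called): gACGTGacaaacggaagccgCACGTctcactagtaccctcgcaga
GAPDH (not called): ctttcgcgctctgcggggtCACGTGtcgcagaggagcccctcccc
Counted on both strands, the LDHA stretch held 3 matches of ACGTG and the SLC16A3, PGK1 and GAPDH stretches 2 each; GCGTG is not marked. The LDHA and GAPDH stretches hold the whole CACGTG. No such core was found in the upstream bases of SLC2A1 or PGAM1, which says only that these letters are not in that window.

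Transcripts of both glucose transporters fell. SLC2A1, the basal glucose transporter GLUT1 (ENSG00000117394.21, chr1:42925375-42959176, minus strand, GRCh38), stood at 244, 231 and 227 scaled CPM with control siRNA and fell to 209, 156 and 185 with agrin siRNA. The groups did not overlap, and agrin siRNA replicate 2 was the lowest. The log2 fold change of SLC2A1 was -0.36 ± 0.09 SE (limma adjusted p = 0.0148), and leaving out control replicate 1 ended the call (-0.33, adjusted p = 0.0654). SLC2A3, the high-affinity transporter GLUT3, stood at 75.8, 76.2 and 73.0 in the control and at 67.2, 57.1 and 58.3 in the agrin siRNA libraries, again without overlap (-0.30 ± 0.06 SE, limma adjusted p = 0.00592). SLC2A3P1, a pseudogene of SLC2A3, reached up to 12.1 scaled CPM, so SLC2A3 reads are uncertain where counting could split them. The ratio of SLC2A3 to SLC2A1 overlapped between the groups (difference in log2 ratio 0.06). Among 10 other tested enzymes and transporters of glycolysis, 3 were higher and 0 lower by limma and by edgeR, with 1 lower at an unadjusted p under 0.05 and 1 lower by DESeq2. By limma 30% were called, near the 28.7% of all genes tested. TIGAR, a phosphatase that restrains glycolysis, was at 0.30 (limma adjusted p = 0.00549), ADPGK, an ADP-dependent glucokinase, at 0.23 (0.00775) and SLC2A8, an intracellular sugar transporter, at 0.25 (0.0388). The SLC2A8 call was lost with DESeq2, on rescaling and without any 1 library other than agrin siRNA replicate 2 (adjusted p up to 0.135).

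**Figure D3:**
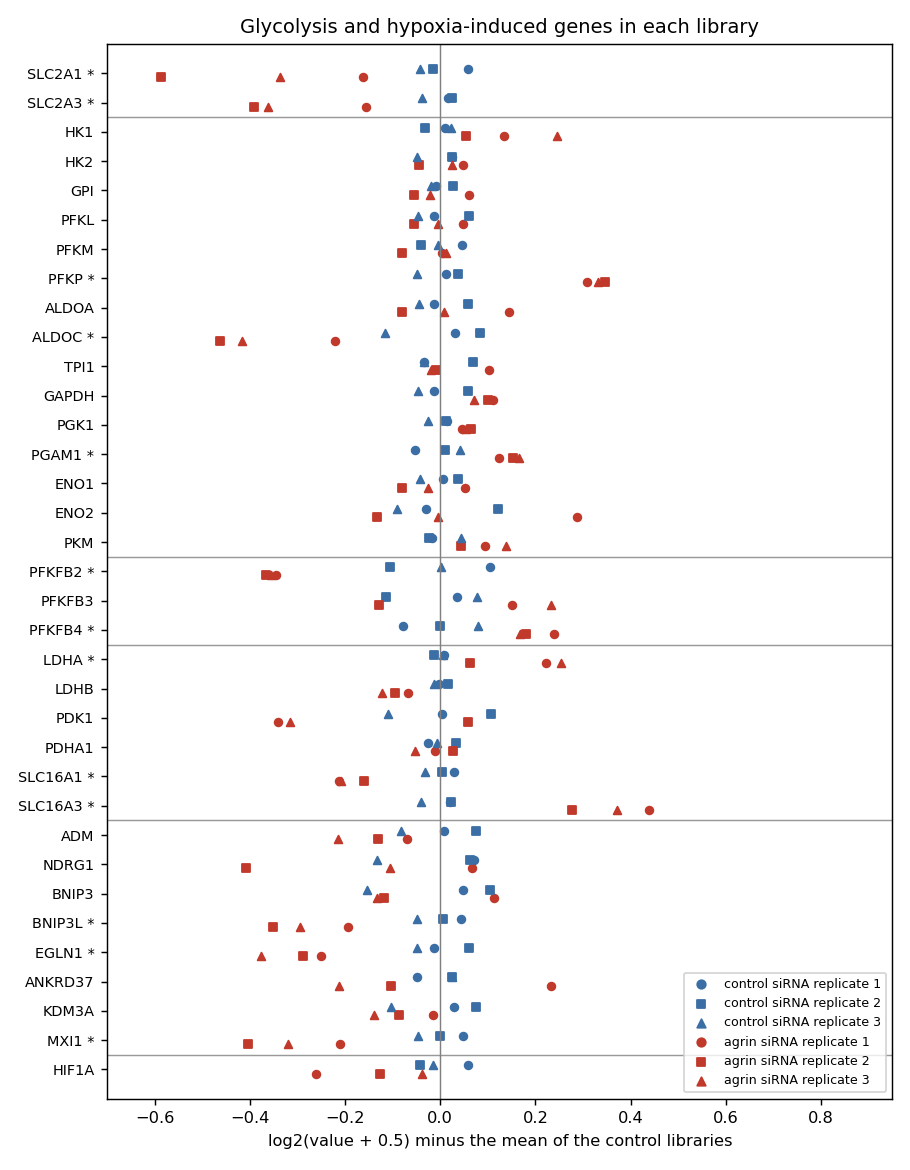
The 35 tested members by role, from top to bottom glucose transporters, step enzymes, regulators of phosphofructokinase, pyruvate and lactate genes, HIF targets outside glycolysis, and HIF1A. Each point is a library, drawn as log2(value + 0.5) minus the mean of the control libraries (control blue, agrin siRNA red, marker shape by replicate); a star marks genes called at an adjusted p under 0.05, and PFKP, SLC16A3, PFKFB2 and EGLN1 show gaps between the groups.

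Of the 15 genes of the enzyme steps from hexokinase to pyruvate kinase, 2 were higher, 1 lower and 12 not called. The called share was 20%, against 28.7% of all genes tested. PFKP (ENSG00000067057.16, chr10:3066333-3137712, plus strand) stood at 103, 105 and 99.1 in the control and at 127, 130 and 129 in the agrin siRNA libraries. These libraries lay close together within each group and far apart between groups, with a log2 fold change of 0.33 ± 0.04 SE (limma adjusted p = 0.000347). The other 2 phosphofructokinase genes were not called, PFKL being at -0.00 (limma adjusted p = 0.964) and PFKM at -0.02 (0.730). AL451164.3, an annotated gene that overlaps PFKP on its strand, had a similar log2 fold change of 0.34, and reads of the overlap cannot be assigned to either. ALDOC stood at 24.5, 25.4 and 22.1 in the control and at 20.4, 17.2 and 17.8 in the agrin siRNA libraries, all of the latter lower (-0.37 ± 0.08 SE, limma adjusted p = 0.00719). ALDOA, the aldolase of muscle and most tissues, overlapped between the groups (0.02, limma adjusted p = 0.794). PGAM1, phosphoglycerate mutase, stood at 57.9, 60.6 and 61.9 in the control and at 65.5, 66.9 and 67.5 in the agrin siRNA libraries, a narrow gap (0.15 ± 0.04 SE, limma adjusted p = 0.0250). Leaving out control replicate 1 (adjusted p = 0.126), control replicate 2 (0.0749) or agrin siRNA replicate 3 (0.0951) ended the PGAM1 call, as did rescaling without mitochondrial and top genes (0.0595). PGAM1 has 13 annotated pseudogenes, so its reads are uncertain where counting could split them.

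The other steps were near the level of the control group. GAPDH stood at 3526, 3706 and 3445 in the control and at 3841, 3811 and 3737 in the agrin siRNA libraries, higher without overlap but not called (0.09 ± 0.06 SE, limma adjusted p = 0.240). This direction depends on the scaling, since quantile normalization put GAPDH at -0.16 (adjusted p = 0.0466) and PKM at -0.05. PKM stood at 3030, 3016 and 3160 in the control and at 3276, 3163 and 3375 in the agrin siRNA libraries, with 3160 and 3163 as the nearest libraries of the groups (0.09, limma adjusted p = 0.236). PGK1, phosphoglycerate kinase, went from 403 ± 6.01 to 419 ± 2.81 (SD, n = 3; limma adjusted p = 0.277). HK1, the hexokinase of most tissues, stood at 163, 158 and 164 in the control and at 177, 168 and 192 in the agrin siRNA libraries, was not called (0.14, limma adjusted p = 0.0583) but was called higher when agrin siRNA replicate 2 was left out (0.19, adjusted p = 0.00481). HK2, the insulin- and HIF-responsive hexokinase, overlapped between the groups (0.01, limma adjusted p = 0.899). The remaining steps, GPI (-0.01), TPI1 (0.02), ENO1 (-0.02) and ENO2 (0.05), overlapped between the groups. ENO2, the neuronal enolase, was lowest in agrin siRNA replicate 2 at 22.4 and highest in agrin siRNA replicate 1 at 30.1.

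The PFKFB enzymes make and remove an allosteric activator of phosphofructokinase, and they went different ways. PFKFB2, the heart-type form, stood at 10.0, 8.60 and 9.31 in the control and at 7.21, 7.10 and 7.15 in the agrin siRNA libraries, which hardly varied (-0.36 ± 0.07 SE, limma adjusted p = 0.00602). PFKFB4 stood at 9.34, 9.90 and 10.5 in the control and at 11.8, 11.3 and 11.2 in the agrin siRNA libraries (0.20 ± 0.07 SE, limma adjusted p = 0.0493). The PFKFB4 call was at the edge of the threshold: it was lost under 11 of 17 alternatives, among them edgeR (adjusted p = 0.0637), DESeq2 (0.120), the replicate block (0.0725) and leaving out any library except agrin siRNA replicate 2 (0.0553 to 0.192). UCN2, which overlaps PFKFB4 on its strand, was not called (0.24). PFKFB3, the inducible form with the highest kinase activity, stood at 95.1, 85.7 and 97.9 in the control and at 103, 84.8 and 109 in the agrin siRNA libraries. The groups overlapped (0.08, limma adjusted p = 0.502), and without agrin siRNA replicate 2 PFKFB3 was called higher (0.19, adjusted p = 0.0177).

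At the lactate end, the transporter transcripts SLC16A3 and SLC16A1 changed in opposite directions, and of the dehydrogenase subunits LDHA was called higher and LDHB was not called. SLC16A3, the lactate exporter MCT4 and a known HIF target (ENSG00000141526.16, chr17:82228397-82261129, plus strand), stood at 256, 256 and 245 in the control and at 342, 306 and 326 in the agrin siRNA libraries. The gap between the groups exceeded the spread within each (0.36 ± 0.05 SE, limma adjusted p = 0.000637). SLC16A1, the transporter MCT1 that carries lactate both ways, stood at 80.5, 79.1 and 77.1 in the control and at 68.0, 70.5 and 68.2 in the agrin siRNA libraries, all lower (-0.19 ± 0.04 SE, limma adjusted p = 0.00546). SLC16A1-AS1 and CSNK1D, which overlap these genes on the other strand, were not called (-0.12 and -0.00). LDHA, the subunit that favours making lactate, stood at 1143, 1125 and 1141 in the control and at 1325, 1187 and 1355 in the agrin siRNA libraries. The groups did not overlap and agrin siRNA replicate 2 lay closest to the control (0.18 ± 0.06 SE, limma adjusted p = 0.0388). The LDHA call was lost under 9 of 17 alternatives, among them leaving out any library but agrin siRNA replicate 2 (adjusted p from 0.0699 to 0.158) and quantile normalization (0.06, adjusted p = 0.378), and it was kept with edgeR and DESeq2. LDHB, the subunit that favours the reverse reaction, stood at 477, 483 and 474 in the control and at 456, 447 and 439 in the agrin siRNA libraries, lower without overlap but not called (-0.10, limma adjusted p = 0.0809).

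Inside mitochondria the pyruvate dehydrogenase complex converts pyruvate to acetyl-CoA, and PDK kinases switch it off. PDHA1, its catalytic subunit, overlapped between the groups (-0.01, limma adjusted p = 0.845). PDK1, the HIF-induced kinase, stood at 21.97, 23.6 and 20.3 in the control and at 17.2, 22.8 and 17.5 in the agrin siRNA libraries. Agrin siRNA replicate 2 lay among the controls and the other two below them, so PDK1 was not called (-0.20, limma adjusted p = 0.185) but was called lower without that library (-0.33, adjusted p = 0.00288). Among 12 other genes of the complex and of pyruvate transport, 1 was higher and 2 lower, or 25% against 28.7% of all genes tested. PDK4, the kinase induced by fasting and fatty acids, stood at 0.328, 0.102 and 0.292 in the control and at 2.05, 3.19 and 3.29 in the agrin siRNA libraries (2.17, limma adjusted p = 6.53e-05), low levels whose log2 fold change ran from 1.62 to 3.56 over the alternatives. The phosphatases that reactivate the complex, PDP1 (-0.27, limma adjusted p = 0.0162) and PDP2 (-0.20, 0.0230), fell. Both calls depended on single libraries, PDP1 being lost without control replicate 1, control replicate 2 or agrin siRNA replicate 3 (adjusted p up to 0.0750) and PDP2 without control replicate 2 or 3 (up to 0.0928).

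Within a library the ratio of 2 related genes, taken as log2 after adding 0.5 to each value, hardly depends on the scaling of the library, and 12 such pairs were compared. In 8 of them the 3 control and 3 agrin siRNA libraries did not overlap, each with the smallest p that an exact two-sided permutation test of 3 against 3 can give (p = 0.1, adjusted p = 0.15 over the 12 pairs), so none could pass. Of single genes tested 45.2% did not overlap, and no share was computed for other pairs. Apart from HK2 over HK1, each of the 8 pairs holds a called gene, so these ratios partly restate those calls. SLC16A3 over SLC16A1 shifted most, from a log2 ratio of 1.67 ± 0.02 to 2.23 ± 0.11 (SD, n = 3), a difference of 0.56. The other ratios without overlap were PFKFB2 over PFKFB3 (difference -0.44), ALDOC over ALDOA (-0.39), PFKP over PFKM (0.35), PFKP over PFKL (0.33), LDHB over LDHA (-0.27), BNIP3L over BNIP3 (-0.23) and HK2 over HK1 (-0.14). The ratios of SLC2A3 to SLC2A1, PFKFB4 to PFKFB3, ENO2 to ENO1 and EGLN3 to EGLN1 overlapped between the groups, and that of EGLN3 rests on 1 to 6 reads.

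**Figure D4:**
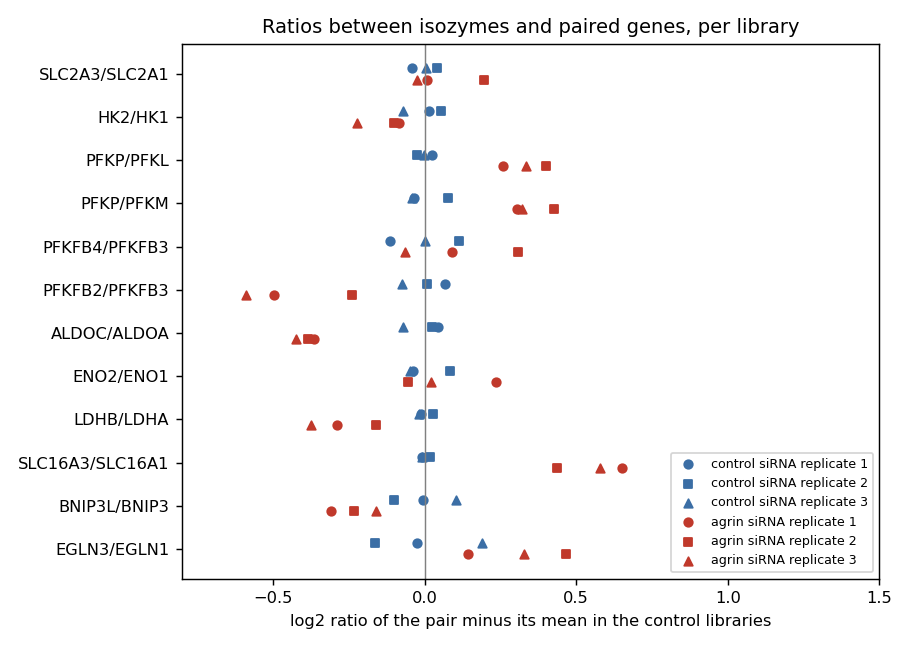
Log2 ratio of each of 12 pairs of related genes minus its mean in the control libraries, per library (control blue, agrin siRNA red, marker shape by replicate). The SLC16A3 to SLC16A1 ratio lies highest in the agrin siRNA libraries (difference 0.56) and the PFKFB2 to PFKFB3 ratio lowest (difference -0.44), while 4 pairs overlap.

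The HIF targets outside glycolysis were lower or not called. EGLN1, the main prolyl hydroxylase that marks HIF alpha subunits for destruction and is itself induced by HIF (ENSG00000135766.8, chr1:231363751-231425044, minus strand), stood at 67.5, 71.0 and 65.8 in the control and at 57.2, 55.7 and 52.3 in the agrin siRNA libraries. All agrin siRNA libraries lay below all controls (-0.30 ± 0.05 SE, limma adjusted p = 0.00178). BNIP3L, a receptor for mitophagy also called NIX, stood at 264, 257 and 247 in the control and at 223, 200 and 208 in the agrin siRNA libraries, with no overlap (-0.28 ± 0.05 SE, limma adjusted p = 0.00260). PNMA2, an annotated gene that overlaps BNIP3L on the other strand, was lower too (-0.30, limma adjusted p = 0.0228). MXI1, which competes with MYC for its partner MAX, stood at 32.5, 31.4 and 30.4 in the control and at 27.1, 23.6 and 25.0 in the agrin siRNA libraries (-0.31 ± 0.06 SE, limma adjusted p = 0.00432). These 3 calls and those of SLC2A3, PFKP, ALDOC, PFKFB2, SLC16A1 and SLC16A3 held under all 17 alternatives.

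The other HIF targets were not called. ADM, which encodes the vasodilator adrenomedullin, stood at 345, 361 and 324 in the control and at 327, 313 and 296 in the agrin siRNA libraries, overlapping by 1 library in each group (-0.14, limma adjusted p = 0.0772), and was called lower without agrin siRNA replicate 1 (-0.17, adjusted p = 0.0321). NDRG1, a stress-induced regulator of growth and trafficking, ranged from 184 to 212 in the control and from 152 to 211 in the agrin siRNA libraries (-0.15, limma adjusted p = 0.323). BNIP3, the paralogue of BNIP3L, was at -0.05 (limma adjusted p = 0.702), and KDM3A, a histone demethylase, at -0.08 (0.326). ANKRD37, an ankyrin repeat protein, stood at 2.15 to 2.29 in the control and at 1.86 to 2.72 in the agrin siRNA libraries (-0.03, limma adjusted p = 0.885). All 8 tested targets had fitted log2 fold changes below 0, but BNIP3 was at 0.01 without control replicate 2 and ANKRD37 at 0.01 and 0.06 without agrin siRNA replicate 2 and 3. BNIP3 also has 39 annotated pseudogenes, so its reads are uncertain. Relative to the control mean, the median of the 8 targets was -0.04, -0.21 and -0.21 in agrin siRNA replicates 1, 2 and 3, so replicate 1 lay within the range of the controls (-0.07 to 0.06).

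HIF1A and the genes that work with it were lower or not called. HIF1A stood at 526, 490 and 500 in the control and at 421, 462 and 492 in the agrin siRNA libraries, with agrin siRNA replicate 3 among the controls (-0.14 ± 0.06 SE, limma adjusted p = 0.0983). Of 12 other tested HIF pathway regulators, 4 were lower and 0 higher by limma, with 3 higher at an unadjusted p under 0.05, 0 by edgeR and 0 by DESeq2. By limma 33.3% were called, against 28.7% of all genes tested. The HIF partner ARNT2 had the largest change, from 80.1, 81.8 and 77.4 to 46.8, 47.1 and 45.4 (-0.77 ± 0.04 SE, limma adjusted p = 6.26e-06). EPAS1, which encodes HIF-2 alpha, went from 653, 616 and 568 to 480, 445 and 470 (-0.39, limma adjusted p = 0.000967). ARNT, the common partner, was at -0.18 (limma adjusted p = 0.00789) and the co-activator CREBBP at -0.19 (0.0105), and neither call held when control replicate 1 was left out (adjusted p = 0.0526 and 0.0622).

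A wider list of 34 tested hypoxia-induced genes went both ways, with 7 higher, 8 lower and 19 not called, and a median log2 fold change of -0.07. The called share was 44.1%, against 28.7% of all genes tested. ANGPTL4, a secreted inhibitor of lipoprotein lipase, rose from 1.04, 1.45 and 1.09 to 7.78, 7.94 and 9.20 (2.38, limma adjusted p = 6.26e-06). CA12, a carbonic anhydrase of the cell surface, rose from 21.0 ± 1.87 to 38.0 ± 1.21 (SD, n = 3; 0.85, limma adjusted p = 3.96e-05). BHLHE40, a transcriptional repressor, fell from 44.0, 42.4 and 41.6 to 24.5, 16.1 and 19.3 (-1.10, limma adjusted p = 0.000259). PPP1R3C, which targets a phosphatase to glycogen, fell from 64.3 ± 7.11 to 42.2 ± 5.10 (SD, n = 3; -0.60, limma adjusted p = 0.00185).

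The routes that branch from glycolysis differed gene by gene. In the pentose phosphate pathway 3 of 8 genes were lower and 1 was higher. The called share of this pathway was 50%, against 28.7% of all genes tested. PGD, an oxidative enzyme of the pathway, fell from 314 ± 1.36 to 250 ± 12.7 (SD, n = 3; -0.33, limma adjusted p = 0.000682). RPE (-0.23) and H6PD (-0.14) fell too, the H6PD call being lost without control replicate 1 or 2 or agrin siRNA replicate 1 or 3 (adjusted p up to 0.166). Of 20 genes listed for the tricarboxylic acid cycle, a list that includes the cytosolic IDH1, 3 were higher and 3 lower. The called share was 30%, against 28.7% of all genes tested. IDH1, the cytosolic isocitrate dehydrogenase, went from 202, 206 and 204 to 121, 115 and 114 (-0.80 ± 0.04 SE, limma adjusted p = 6.26e-06) and IDH2, its mitochondrial relative, from 101, 103 and 99.1 to 59.9, 60.0 and 58.9 (-0.76). The isocitrate dehydrogenase subunits IDH3A (-0.07), IDH3B (0.04) and IDH3G (0.12) were not called. SUCLG2 was lower by a small amount (-0.12, limma adjusted p = 0.0489). OGDH, a subunit of the oxoglutarate dehydrogenase complex, rose (0.18, limma adjusted p = 0.0104).

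Genes of glycogen and glucose output were lower or not called. Of 13 tested genes of glycogen metabolism 30.8% were called by limma, near the 28.7% of all genes tested. By limma 4 were lower and 0 higher, with 2 higher at an unadjusted p under 0.05, 0 by edgeR and 0 by DESeq2. After PPP1R3C these were PPP1R3B (-0.23), the phosphorylase PYGL (-0.19) and UGP2 (-0.13), which makes the sugar nucleotide for glycogen. These 3 calls rested on single libraries (adjusted p up to 0.0778): PPP1R3B was lost without control replicate 1 or 2 or agrin siRNA replicate 3, PYGL without control replicate 2 or agrin siRNA replicate 3, and UGP2 without any control library or agrin siRNA replicate 3. In gluconeogenesis both tested genes fell, while 13.5% of all genes tested were lower. G6PC3, a glucose phosphatase of most tissues, went from 63.8 ± 0.792 to 40.6 ± 2.06 (-0.65) and PCK2, the mitochondrial carboxykinase, from 83.8 ± 5.85 to 65.0 ± 3.75 (SD, n = 3; -0.36, limma adjusted p = 0.00211). Of 4 tested genes of the glucose-sensing factors MondoA and ChREBP and their targets, ARRDC4 (-0.32), MLX (-0.35) and MLXIP (-0.17) were lower and TXNIP was not called (0.07, limma adjusted p = 0.449). The called share of this short list was 75%, against 28.7% of all genes tested. The MLXIP call was lost without control replicate 1 or 2 (adjusted p up to 0.0754).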

How the data were processed

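The authors deposited a normalized signal per gene and library, which the file name calls CPM. Build hg38 and the tools edgeR, HTSeq, SAMtools and STAR 2.6.1d are named in the submitters' processing notes. No source used here states the annotation or strand setting, so overlapping genes are uncertain. Columns sum to 1073190 to 1096530. Every value was a whole multiple of 1 step per library (100% of values, tolerance 0.01 of a read), so whole reads were recovered for edgeR and DESeq2; 3 reads correspond to values of 0.0681 to 0.0761.

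The 13206 genes that reached a value of 1 in 3 or more libraries were fitted together by limma 3.58.1 (R 4.3.3) after log2(value + 0.5) (trend, no covariate, Benjamini-Hochberg, two-sided, threshold 0.05). This scale understates changes of low genes. The design had been set for CPM; the test was kept. The test was checked on simulated reads, with a pass required only for changes larger than that of any called member. The check therefore does not vouch for changes as small as those of the members. Members and lists were chosen with earlier results of these data known. Named were all members, AGRN and up to 4 called genes with the largest change per wider list. AL451164.3, PNMA2, SLC16A1-AS1, CSNK1D, SLC2A3P1, TXNIP, SUCLG2, IDH3A, IDH3B, IDH3G and the markers were added after their values were seen. Some genes of the wider lists are not reported here. Alternatives were pseudocounts of 0.1 and 1, no filter, a minimum mean of 5, scaling by median of ratios, quantile normalization, rescaling without mitochondrial and top genes, no trend, the replicate block, edgeR 4.0.16, DESeq2 1.42.0 and leaving out each library. Lengths, coordinates and the 148 pseudogenes named after 17 members are from GENCODE 29 on GRCh38.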

Additional observations from a re-analysis of the deposited data

How the results depend on the processing

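Over 17 alternatives and 35 tested members, 559 of 594 values stayed on their side of the threshold, among them values of members not called, some of which changed sign (PKM -0.05 under quantile normalization); 25 lost a call, 9 gained one and 1 was called with the opposite sign, GAPDH under quantile normalization (-0.16). Of 13 called members 9 kept their call under all of these. The number of called HIF targets moved between 3 and 4 lower, with 0 higher. Higher genes of glycolysis, pyruvate and lactate numbered 5, against 3 with no filter, 2 on rescaling without mitochondrial and top genes, and 2 to 7 when single libraries were left out (2 without control replicate 1, control replicate 2 or agrin siRNA replicate 3, 3 without control replicate 3 or agrin siRNA replicate 1, 7 without agrin siRNA replicate 2); lower ones numbered 5, and 4 to 6 when single libraries were left out. Over all genes, leaving out libraries gave 1124 to 2551 higher and 947 to 2588 lower; the cause was not tested. Rescaling gave 1574 higher and 2260 lower. Whether the replicate numbers pair the libraries is not resolved. Correlations of deviations were -0.04, 0.17 and 0.20 for numbers 1, 2 and 3, and -0.33 to 0.15 between unlike numbers. With the replicate block 1905 genes were higher and 1775 lower, HK1 and ADM gained a call and PFKFB4 lost it. DESeq2 and edgeR called 1744 and 1844 higher and 1689 and 1887 lower. Members under about 10 scaled CPM rest on fewer reads, and EGLN3 (1 to 6 reads) was not tested.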
